A study of Zea mays with 24 samples.

Results

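In 162 maize genes, probes to different transcripts of the same gene ID responded to heat in opposite directions in each of 3 cytolines, at least 1 being higher under stress and at least 1 lower. These genes were selected on the heat response itself. A gene ID entered when it had 2 or more probes well above background on all 24 arrays, when one such probe had a stress mean at least 0.8 above its control mean on the deposited log2 scale in all 3 cytolines, and when another had a stress mean at least 0.8 below it in all 3. Of the 107027 gene IDs on the array, 6006 had at least 2 probes well above background on all arrays, and the 162 genes were 2.7% of these. The heat responses of their rising and falling probes, and differences in these responses between cytolines, are therefore a description with no evidence of their own. The choice did not set cytolines against each other within stressed or within control seedlings, but it used the same stressed and control values. Where controls of 2 cytolines are alike, their difference under stress is nearly their difference in heat response. Such a difference is thus not independent of the choice.

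The study asked how 1 nucleus behaves in different cytoplasms under heat. A cytoline carries the nucleus of one line with the chloroplasts and mitochondria of another, and was made here by repeated crosses with TC243 as the pollen parent. The cytolines were cytTC221 and cytTC248, spelled cytT248 in the paper, both with the TC243 nucleus in another line's cytoplasm, and TC243 itself, the nucleus donor in its own cytoplasm. Stressed seedlings grew for 20 days at 26 °C by day (16 h) and 20 °C by night (8 h), and were then kept for 24 h at 40 °C. Control seedlings grew for 21 days without the heat. Each of the 6 groups had 4 replicates, each hybridised to its own one-colour array. RNA came from leaves and stems at the 3-leaf stage, so fewer cells of a type and less RNA per cell cannot be told apart. The methods name 3 seedlings per line as harvested, fewer than the 4 replicates of a group, and how they relate is not stated. Replicates may therefore share plants, and the p-values measure only the spread between these samples, which may be technical.

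Many plant genes give more than one mature RNA, because introns can be removed or kept, splice sites can shift, and transcription can start or end at other places. The serine/arginine-rich (SR) proteins, RNA-binding splicing factors that help the spliceosome to find introns, are known for heavily spliced transcripts of their own, and heat is known to alter splicing in plants. A probe on this array was designed against 1 numbered transcript, but its signal can include other RNAs that hold the same stretch. Probes were thus read as probes, and the level of one was not set against that of another.

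Between 36.9% and 43.1% of the spots on an array were well above background. Of the 26 probes to 11 green leaf marker genes, 19 were well above background on all 24 arrays, whereas none of the 4 root, 7 endosperm, 1 embryo and 2 pollen marker probes was. Outside leaf, the root marker rth3 came nearest, with its T01 probe well above background on 20 arrays (deposited log2 values of 6.52 to 7.25 under stress, against 7.33 to 7.58 in controls), its T02 probe on 10, and the endosperm marker zp15 had its T01 probe so on 6. Of the 19 leaf probes, 14 had every stressed array below every control, 2 (both of me3) had every stressed array above, and 3 overlapped. The light-harvesting gene lhcb6 had deposited log2 values of 9.35 to 10.61 under stress at T01, against 16.83 to 17.58 in controls, and pep1, for the carbon-fixing enzyme of C4 leaves, had 9.0 to 10.09, against 15.71 to 16.11. The part of this shift in leaf markers in the results on heat was not tested. The 6 slides carried 4 arrays each, and each slide held the stressed and the control array of 1 cytoline besides 2 other arrays. The stressed arrays of cytTC248 lay at odd positions of the slide and its control arrays at even ones, while cytTC221 and TC243 had the reverse order, so differences that involve cytTC248, within a condition as well as in heat response and including tests over all 3 cytolines, cannot be told apart from array position. Arrays of cytTC221 and TC243 had the same odd or even positions within a condition.

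The 162 genes had 699 probes. Of these, 235 were rising probes, 251 were falling probes, and 213 were neither. In 79 genes (48.8%) there was exactly 1 rising and 1 falling probe, in 43 at least 2 rising ones and in 54 at least 2 falling ones. The falling probes outnumbered the rising ones in 43 genes, the reverse held in 33, and the numbers were equal in 86. At the extremes, GRMZM2G019018 had 6 rising probes and 1 falling, and cys2 (GRMZM2G005887) had 1 rising and 6 falling. In 52 genes another probe well above background on all arrays stayed inside the limits in at least 1 cytoline, with responses between -1.43 and 2.10.

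The size of the opposition was much alike in the 3 cytolines. The strongest rising probe of a gene had a median response of 1.77 in cytTC221, 1.68 in cytTC248 and 1.79 in TC243 on the deposited log2 scale, and the strongest falling probe had -1.47, -1.68 and -1.66 in the same order. The median gap between both probes was 3.49 in cytTC221, 3.57 in cytTC248 and 3.54 in TC243. The gap was at least 2 in all cytolines for 159 genes and at least 4 for 45. Over all cytolines together, the 12 stressed and the 12 control arrays overlapped for 15 of the 486 rising and falling probes (3.09%). The choice asked for a shift of at least 0.8 in every cytoline, and the median SD between replicates was 0.10 to 0.14 on the percentile scale. Little overlap therefore follows from the choice, here and in the single genes below.

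**Figure D1:**
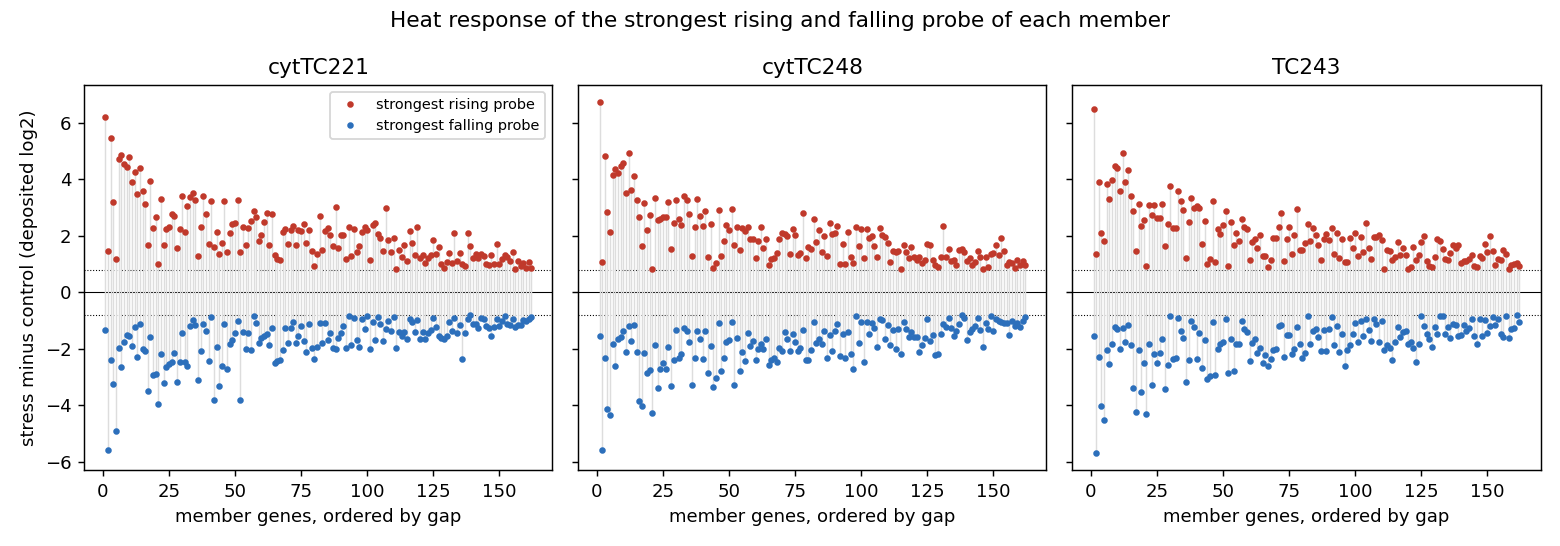
Heat response (stress minus control, deposited log2, vertical axis) of the strongest rising probe (red) and the strongest falling probe (blue) of each of the 162 genes, ordered by gap along the horizontal axis, in 1 panel per cytoline with dotted lines at 0.8 and -0.8. Every gene has a point on either side of the dotted lines because the genes were chosen so, and the median gap of 3.49 to 3.57 was similar in the 3 panels.

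The opposition was also present on each slide by itself, where 1 stressed and 1 control array of the same cytoline could be set side by side. On all 6 slides the strongest rising probe was higher and the strongest falling probe lower on the stressed array in all 162 genes, with the smallest gap between 1.4 and 1.76. Counting all rising probes, 235 of 235 were higher on the stressed array on 5 slides and 234 on 1 slide. The falling probes were lower in 251 of 251 on 5 slides and in 250 on 1 slide. These are the arrays that the choice used, so the counts add a view by slide and no separate evidence.

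Just inside the limits were GRMZM2G149847, whose best rising probe had 0.809 in its lowest cytoline, and GRMZM2G160504, whose best falling probe had -0.81 in its highest. Just outside were GRMZM2G106673, with 0.797 on the rising side, and GRMZM2G078283, with -0.797 on the falling side.

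The 162 genes were set beside the other 5844 gene IDs with at least 2 probes well above background. They had a median of 4 probes on the array, against 3 in the others, and a median of 3 well above background, against 2. More probes give more chances to meet both limits, so this difference goes with the rule. A RefSeq gene was matched to 133 of the 162 (82.1%), against 77.6% of the others. For 8 of them (4.94%) the gene ID matched 2 or more RefSeq genes, against 3.08% of the others, so that probes of these 8 could lie in separate genes. NAC120 was the only one of the 8 with a gene name. The strongest rising and falling probes carried different transcript numbers in all 162, with the first transcript (T01) on the rising side in 68 genes, on the falling side in 34 and on neither in 60.

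Probe names held one of 2 tags, Sp or Xhy, whose meaning is not given in the sources used here. Xhy was in the name of 156 of 235 rising probes (66.4%) and of 217 of 251 falling probes (86.5%). Among the other gene IDs with 2 probes well above background, it was in 85.8% of the probes that met the limit for rising and in 91.5% of those that met the limit for falling. The strongest pair joined an Sp rising with an Xhy falling probe in 65 genes, 2 Xhy probes in 68, an Xhy rising with an Sp falling probe in 18, and 2 Sp probes in 11. The rising probes also started from lower levels, with a median control level of 8.12 on the deposited log2 scale, against 8.79 for rising probes of the other gene IDs. Falling probes had a median control level of 11.29, against 10.94. The part of the probe tag and of the starting level in the opposite responses was not tested.

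Among the 21 genes with a name in RefSeq were 2 SR splicing factors, SC30 and SCL25A. SC30 (GRMZM2G016296) had 6 probes, all well above background on every array, of which T02 was higher under stress, T03, T04 and T05 were lower, and T01 and T06 stayed inside the limits in at least 1 cytoline. On the deposited log2 scale, the T02 probe measured 11.61, 11.77, 11.77 and 11.80 in stressed cytTC221, against 9.01, 9.0, 9.02 and 9.23 in its controls. In cytTC248 it measured 11.48, 11.73, 11.65 and 11.76 under stress, against 9.01, 8.84, 8.90 and 8.97 in controls, and in TC243 it measured 11.57, 11.36, 11.32 and 11.52, against 8.80, 8.90, 8.91 and 9.01. All 12 stressed arrays lay above all 12 controls, by 2.67 in cytTC221, 2.73 in cytTC248 and 2.54 in TC243.

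The T03 probe of the same gene moved the other way. It measured 10.26, 9.80, 10.52 and 10.45 in stressed cytTC221, against 13.08, 13.15, 13.19 and 13.18 in controls. In stressed cytTC248 it had 10.07, 10.14, 10.27 and 10.07, against 12.99, 12.89, 12.84 and 12.81 in controls. Stressed TC243 had 10.21, 10.03, 9.98 and 10.16, against 12.54, 12.56, 12.71 and 12.63 in controls. The stressed arrays were all below the controls, at responses of -2.89, -2.75 and -2.52 in cytTC221, cytTC248 and TC243, and T04 and T05 had responses between -1.92 and -2.75. T01, at -0.03, 0.25 and -0.11, and T06, at -0.35, -0.91 and -0.29, were nearer to 0.

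SCL25A (GRMZM2G426229), the other SR protein, had its T03 probe between 9.21 and 9.87 on the stressed arrays, with a median of 9.66, and between 7.31 and 7.76 on the controls, with a median of 7.57. Its T04 probe ran from 8.62 to 9.51 under stress, with a median of 8.79, and from 9.97 to 10.38 in controls, with a median of 10.21. Neither probe's stressed arrays overlapped its controls. T01 went with T04, at -0.82 in cytTC221, -1.33 in cytTC248 and -1.50 in TC243, while T02, with 0.98, 0.73 and 0.80, was not counted as rising.

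**Figure D2:**
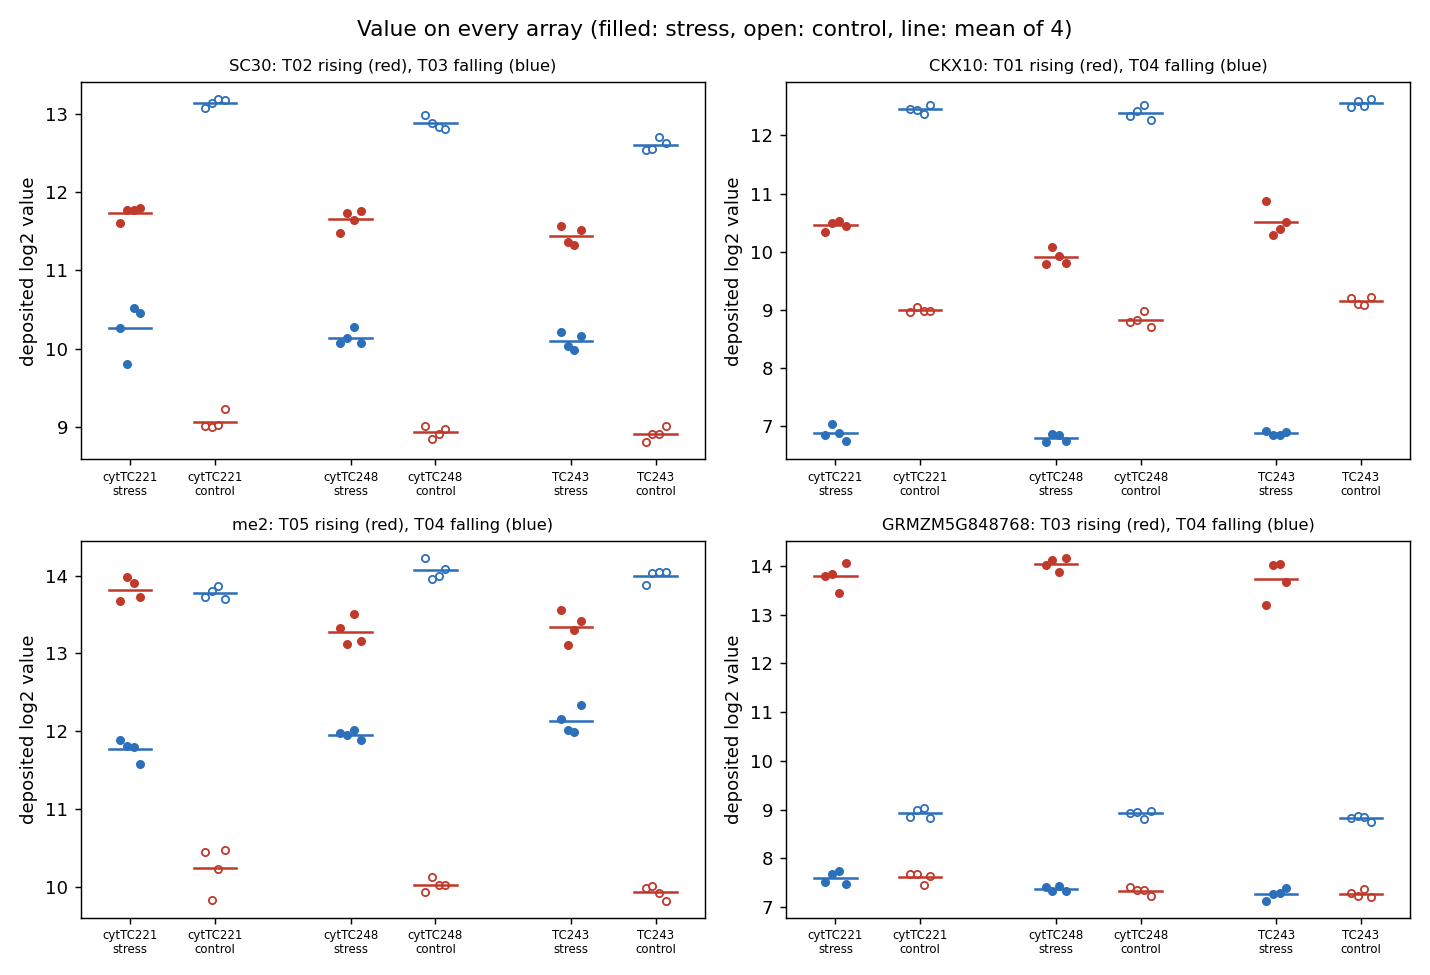
Deposited log2 value of every array (vertical axis) for the strongest rising (red) and strongest falling (blue) probe of SC30, CKX10, me2 and GRMZM5G848768, with stressed arrays (filled) left of control arrays (open) in each cytoline and lines at group means. In each of the 8 probes, which were chosen by their shift under stress, the 12 stressed arrays lie wholly on one side of the 12 control arrays.

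Other genes of the splicing machinery were looked up by name, as a list of 18 gene IDs of SR and related proteins, U1-70K (a protein of the U1 particle, which binds the start of introns) and Rgh3 (a splicing factor known from endosperm mutants). The list was made with earlier results of these data known. Without SC30 and SCL25A, whose heat responses chose them, 12 of 47 tested probes were higher and 18 lower under stress in all 3 cytolines (limma, adjusted p below 0.01, values scaled to the array's 75th percentile). The 12 include probes T01 to T05 of RS2Z37B (GRMZM2G099317), each well above background on only 11 to 13 arrays. Probes of the same gene are not independent. Over all 64523 probes tested, 35.2% were higher and 25.6% lower in all 3. On the deposited values these shares were 29.3% and 33.6%, with 11 list probes higher and 22 lower. With the probes of SC30 and SCL25A counted in as a description, the list had 15 higher and 23 lower of 58, and 14 and 29 on the deposited values. The median of all tested probes was shifted by 0.08 in cytTC221, 0.39 in cytTC248 and 0.19 in TC243 by the percentile scaling, and by -0.05, -0.01 and -0.01 in the deposited table, so the direction of small responses depends on the scale.

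Outside the 162 genes, RSZ21, RSZ28, SC32 and U1-70K also had probes that were higher and probes that were lower in all 3 cytolines, SC32 on the percentile scale only. The share of all gene IDs with probes called in both directions was not counted. These cases are therefore not read as a trait of splicing genes. U1-70K (GRMZM2G113592) had deposited log2 responses at T03 of 2.08 in cytTC221, 2.35 in cytTC248 and 2.62 in TC243, but of -0.66, -0.66 and -0.79 at T02, just short of the limit. RSZ21 (GRMZM2G151923) had responses of 1.81, 1.29 and 1.12 at T01 and -0.82, -1.77 and -1.32 at T02, and was left out of the 162 because T01 was well above background on only 12 arrays. SC32 (GRMZM2G110143) had responses of -3.58, -4.08 and -3.59 at T01 but of 0.26, -0.08 and -0.02 at T03. RS2Z35 (GRMZM2G099186) had the same direction at T01, with -2.09, -1.95 and -2.02, and at T02 and T03. SCL25B (GRMZM5G867185), at 3.11, 3.16 and 3.19, had 1 probe and could not show a second direction.

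A second list, of 8 gene IDs that make or use small silencing RNAs, had 1 tested probe for each of 7. The probes of rdr6 and of 1 of the dcl4 IDs were higher in all 3 cytolines and those of dcl1, mop1, lbl1 and dcl3a lower, on both scales. Over all probes tested, 35.2% were higher and 25.6% lower, or 29.3% and 33.6% on the deposited values, so nothing is read from these counts. The rdr6 probe was well above background on only 9 arrays, with deposited responses of 0.37 in cytTC221, 0.28 in cytTC248 and 0.165 in TC243. The lbl1 probe was so on 12. With 1 tested probe each, none of these could show opposite movement.

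Among the named genes, 5 act on chromatin or transcription. The brahma1 gene (GRMZM2G163849), for an ATPase of SWI/SNF chromatin remodelling, had its T02 probe between 8.31 and 8.70 on stressed arrays (median 8.49), against 6.75 to 7.18 on controls (median 6.90). Its T03 probe lay between 9.90 and 10.57 under stress (median 10.14) and between 13.41 and 13.60 in controls (median 13.49), which is 9.08-fold lower in cytTC221, 10.06-fold in cytTC248 and 10.68-fold in TC243. T04 went down with T03, at -2.19, -2.55 and -2.12. T01, well above background on 17 arrays, had 1.68, 1.64 and 1.78.

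The other cases had smaller gaps, and gte102, mbd115 and ERD3 (further on) were added after their values were seen so that all named genes appear. In sbp16 (GRMZM2G169270), a transcription factor of the SBP-box family, T01 had responses of 1.23, 0.97 and 1.11 in cytTC221, cytTC248 and TC243, and T02 had -1.28, -1.29 and -1.37. The bromodomain gene gte102 (GRMZM2G006707) had 2.08, 1.53 and 1.53 at T05, against -0.90, -0.90 and -0.86 at T01. For mbd115 (GRMZM2G157470), of the methyl-CpG-binding domain family, T03 had 1.32, 1.24 and 1.27, and T02 had -1.55, -1.11 and -0.95. Stressed and control arrays did not overlap in any of these 6 probes. NAC120 (GRMZM2G176677), a NAC family transcription factor whose gene ID matched 2 RefSeq genes, had 2.17, 2.20 and 2.26 at T01 and -1.10, -1.66 and -1.38 at T03, with 4 further probes well above background between -0.91 and 0.04.

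CKX10 (GRMZM2G348452), for a cytokinin oxidase, which breaks down the hormone cytokinin, had the largest gap of the named genes. Its T04 probe measured 6.84, 7.03, 6.88 and 6.74 in stressed cytTC221, against 12.46, 12.44, 12.37 and 12.52 in controls. In stressed cytTC248 it had 6.72, 6.86, 6.84 and 6.74, against 12.34, 12.42, 12.53 and 12.26 in controls. Stressed TC243 had 6.92, 6.84, 6.84 and 6.89, against 12.49, 12.60, 12.50 and 12.62 in controls. That was 47.7-fold lower in cytTC221, 48.4-fold in cytTC248 and 51.3-fold in TC243, and since the deposited values keep the background, near which the stressed arrays lay, the folds are too small rather than too large.

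The T01 probe of CKX10 was higher on every stressed array. It measured 10.34, 10.49, 10.54 and 10.44 in stressed cytTC221, against 8.96, 9.05, 8.97 and 8.97 in controls. Stressed cytTC248 had 9.79, 10.09, 9.93 and 9.80, against 8.79, 8.82, 8.98 and 8.71 in controls, and stressed TC243 had 10.88, 10.29, 10.39 and 10.51, against 9.20, 9.10, 9.09 and 9.22. T02 and T03, which were well above background on 23 and 20 arrays, went with T04, at -4.87 to -4.90 and -5.38 to -5.44.

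Also in signalling, MPK4 (GRMZM2G053987), a mitogen-activated protein kinase, had its T01 probe between 8.50 and 8.70 under stress (median 8.62), against 6.88 to 7.09 in controls (median 7.02). Its T04 probe lay between 11.01 and 11.94 (median 11.22), against 13.65 to 14.05 (median 13.96), and T02, at -0.41, -1.33 and -1.43, and T03, at -0.45, -1.06 and -1.15, were on the same side. The membrane protein gene hir3 (GRMZM2G070659), of the hypersensitive induced reaction family, was the case with most rising probes among the named genes. Its probes T01, T02, T03, T04 and T06 had responses of 2.0 to 2.22 in cytTC221, 2.40 to 2.57 in cytTC248 and 2.63 to 3.08 in TC243, while T05 had -2.63, -2.73 and -2.20. The T05 probe had a median of 12.08 on stressed arrays, in a range of 11.60 to 12.50, and of 14.70 on controls, in a range of 14.16 to 14.92.

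Genes of primary metabolism were me2, eno2, frk2, cys2 and lpa3. The malic enzyme gene me2 (GRMZM2G122479) had its T05 probe at 13.67, 13.98, 13.90 and 13.72 in stressed cytTC221, against 10.44, 9.83, 10.23 and 10.47 in controls. In stressed cytTC248 the values were 13.32, 13.12, 13.51 and 13.15, against 9.94, 10.12, 10.02 and 10.02. In stressed TC243 they were 13.56, 13.11, 13.29 and 13.41, against 9.98, 10.01, 9.91 and 9.82. All stressed arrays were thus higher, 11.92-fold, 9.52-fold and 10.65-fold in the 3 cytolines in this order.

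Its T04 probe was lower in every stressed array. It had 11.88, 11.81, 11.79 and 11.58 in stressed cytTC221, against 13.72, 13.80, 13.87 and 13.70 in controls, and 11.97, 11.95, 12.01 and 11.88 in stressed cytTC248, against 14.23, 13.96, 14.00 and 14.08. Stressed TC243 had 12.15, 12.02, 11.99 and 12.34, against 13.88, 14.03, 14.04 and 14.04 in controls. T03, at 0.85, 1.27 and 1.11, was on the side of T05.

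In eno2 (GRMZM2G048371), for the glycolytic enzyme enolase, both probes of the strongest pair had the Sp tag. T01 ran from 11.33 to 11.79 under stress (median 11.57), against 8.58 to 8.85 in controls (median 8.74), and T02 from 8.29 to 8.71 (median 8.58), against 9.65 to 10.24 (median 9.98). In cys2, a cysteine synthase gene, T04 was the only rising probe, at 8.84 to 9.76 under stress (median 9.03), against 7.43 to 7.89 in controls (median 7.56), and its 6 falling probes had responses of -1.42 to -2.48. For frk2 (GRMZM2G051677), a fructokinase gene, T03 had 1.15, 1.22 and 1.27 and T01 had -2.0, -2.46 and -1.75. For lpa3 (GRMZM2G361593), for a myo-inositol kinase of phytic acid synthesis, T03 had 1.84, 1.70 and 1.76 and T01 had -0.92, -0.95 and -0.85, close to the limit.

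Turning to cell structure and water transport, Actin-7 (GRMZM2G067985), a cytoskeletal actin, had 14 probes well above background on all arrays, the most of the 162 genes, of which T02, T11, T12 and T15 were rising and T05, T06, T09 and T10 falling. T15 measured 11.66 to 11.95 under stress (median 11.86), against 8.18 to 8.66 in controls (median 8.36), and T11 had responses of 3.43, 3.24 and 3.73. The falling probes were close to the limit, T10 with 14.38 to 14.94 under stress (median 14.55), against 15.54 to 15.79 in controls (median 15.71). PIP2-1 (GRMZM2G014914), a water channel of the plasma membrane, had T03 at 8.41 to 9.57 (median 8.81), against 7.5 to 7.88 (median 7.69), and T02 at 13.93 to 15.01 (median 14.25), against 16.24 to 16.93 (median 16.66).

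Of the remaining named genes, HST (GRMZM2G113476) had 2 probes on each side, with T03 at 1.69, 2.33 and 3.04 in cytTC221, cytTC248 and TC243, T04 at 1.61, 2.90 and 3.10, T01 at -2.44, -2.38 and -2.38, and T02 at -2.15, -2.0 and -2.04. One stressed cytTC248 array measured 7.75 at T03 where the other 3 had 9.55 to 9.80, and without it the cytTC248 response was 2.82. In mars (GRMZM2G166345) T01 had 2.29, 1.71 and 2.08 and T02 had -0.84, -1.48 and -1.21. In arf1 (GRMZM2G395844) T02 had 1.26, 1.00 and 1.22 and T03 had -1.86, -2.33 and -2.13. ERD3 (GRMZM2G144155), named for early response to dehydration, had T01 at 1.68, 1.46 and 1.14 and T02 at -1.42, -1.31 and -2.40, and was the only named gene with an overlap, as 1 control array of cytTC248 read 8.83 at T02 and the highest stressed array, of cytTC221, read 9.12.

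**Figure D3:**
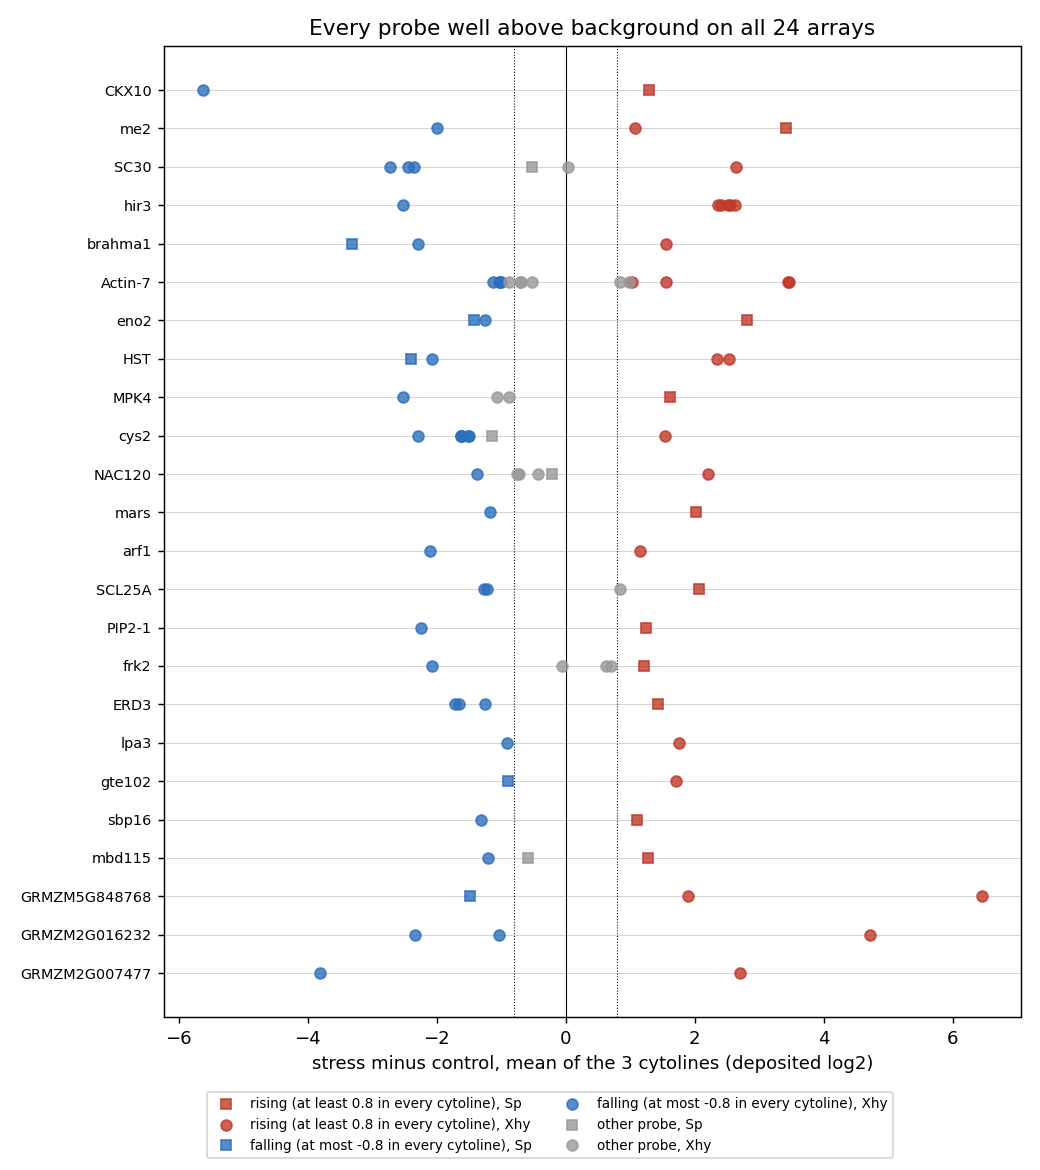
Mean heat response over the 3 cytolines (deposited log2, horizontal axis) of every probe well above background on all 24 arrays, for the 21 named genes and 3 without a name (1 gene per row), with squares for Sp and circles for Xhy probes, red for rising, blue for falling and grey for other probes, and dotted lines at the limits of 0.8. The extreme probes are T04 of CKX10 on the left and T03 of GRMZM5G848768 on the right, and Actin-7 has the most points.

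The largest gap of all belonged to GRMZM5G848768, which has no gene name in RefSeq. Its T03 probe measured 13.80, 13.84, 13.45 and 14.06 in stressed cytTC221, against 7.67, 7.68, 7.45 and 7.63 in controls. Stressed cytTC248 had 14.02, 14.12, 13.88 and 14.17, against 7.41, 7.36, 7.35 and 7.23, and stressed TC243 had 13.19, 14.03, 14.04 and 13.67, against 7.28, 7.22, 7.38 and 7.2. These were increases of 72.5-fold, 104.7-fold and 88.2-fold in cytTC221, cytTC248 and TC243. The T02 probe, well above background on 23 arrays, went with it at 6.40, 7.05 and 6.78.

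The T04 probe of this gene was lower under stress. It had 7.5, 7.67, 7.74 and 7.47 in stressed cytTC221, against 8.86, 9.0, 9.03 and 8.82 in controls, and 7.42, 7.32, 7.43 and 7.34 in stressed cytTC248, against 8.94, 8.96, 8.81 and 8.97. Stressed TC243 had 7.13, 7.26, 7.29 and 7.40, against 8.84, 8.87, 8.85 and 8.74 in controls. No array of one condition reached into the range of the other.

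Next among the unnamed genes, GRMZM2G016232 had T04 at 12.46 to 14.53 under stress (median 13.94), against 8.56 to 9.20 in controls (median 9.02), and T03 at 8.79 to 9.34 (median 9.07), against 11.25 to 11.51 (median 11.40). In GRMZM2G007477, T01 had 7.22 to 8.50 (median 7.46), against 11.27 to 11.74 (median 11.46), and T02 had 13.40 to 16.29 (median 16.13), against 12.71 to 13.46 (median 13.08). Stressed TC243 spread widely at that T02 probe, with 13.40, 15.93, 15.93 and 14.47, and its lowest array lay below the highest control, 1 of cytTC221.

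Whether the 486 rising and falling probes differed between cytolines was tested with limma in 1 fit of the 6 groups, at an adjusted p below 0.01 over all 64523 probes, on values scaled to the array's 75th percentile. Among stressed seedlings, 213 of the 486 (43.8%) differed between the cytolines, 115 rising (48.9%) and 98 falling (39%). The same test called 46.3% of all probes and 47.8% of those well above background on all arrays, so the share was near the background. Among control seedlings, 63 (13%) differed, 34 rising (14.5%) and 29 falling (11.6%), against 15.3% of all probes and 17.3% of those well above background. With slide as a block the counts were 195 under stress and 46 in controls, against 28728 and 8700 of all 64523 probes.

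The heat response itself differed between cytolines for 135 of the 486 probes (27.8%), 79 rising (33.6%) and 56 falling (22.3%). Of all probes 38.4% did, and of those well above background 37.3%. With slide as a block it differed for 124 of the 486, against 21952 of all 64523 probes. This test uses the responses that the choice required to have 1 sign and a minimum size in every cytoline, so nothing is read from the lower share.

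**Figure D4:**
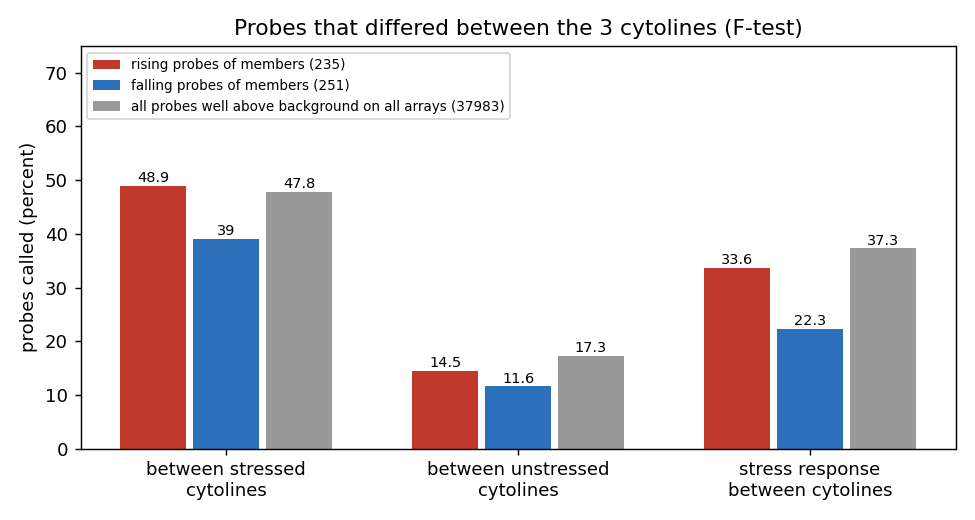
Percent of probes that differed between the 3 cytolines (limma F-test, adjusted p below 0.01), for the 235 rising and 251 falling probes and for all 37983 probes well above background on all arrays, in stressed seedlings, in control seedlings and in the heat response, the last of which chose the probes. The shares of rising probes, 48.9%, 14.5% and 33.6%, lie near or below those of all such probes, 47.8%, 17.3% and 37.3%, and the falling probes lie below both.

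The pairs of cytolines with cytTC221 held most of the differences under stress, among all probes tested as well as among the chosen ones. Stressed cytTC221 differed from stressed TC243 in 98 of 235 rising and 91 of 251 falling probes, where 39.9% of all probes did. From stressed cytTC248 it differed in 82 of 235 rising and 62 of 251 falling probes, where 38.5% of all probes did. Stressed cytTC248 differed from stressed TC243 in 26 of 235 rising and 12 of 251 falling probes, where 10.1% of all probes did. These counts are near or below the shares of all probes, and nothing is read from them. Of the probes that differed, cytTC221 was higher than TC243 in 58 of 98 rising (59.2%) and 68 of 91 falling ones (74.7%), against 37.8% over all probes. On the deposited table the direction moved with the scale, to 91 of 122 rising (74.6%), 103 of 119 falling (86.6%) and 56.3% over all probes.

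In the heat response, cytTC221 and TC243 differed in 67 of 235 rising and 47 of 251 falling probes, against 26.9% of all probes. The response of cytTC221 minus that of TC243 was positive in 28 of the 67 rising and in 30 of the 47 falling probes, where 37.4% of all probes called had a positive one. On the deposited table it was positive in 41 of 79 rising and 42 of 60 falling probes, and in 47.6% of all probes called. These counts describe the responses that chose the probes, and nothing is read from them. For a falling probe a positive difference is a smaller drop in cytTC221.

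In hir3, all 5 rising probes were lower in stressed cytTC221 than in stressed TC243. On the percentile scale, T01 averaged -1.10 ± 0.18 in stressed cytTC221, -0.58 ± 0.13 in stressed cytTC248 and -0.21 ± 0.10 in stressed TC243 (SD, n = 4 each), with a difference between cytTC221 and TC243 of -0.89 (limma, adjusted p = 5.6e-08). The other 4 differed by -0.68 to -0.97, and in heat response, as a description, by -0.65 to -0.97 over the 5. The falling probe T05 was also lower in stressed cytTC221, by -0.64 (limma, adjusted p = 7.0e-05). No probe of hir3 was called different between control cytolines (limma F-test, lowest adjusted p = 0.115, at T05). The differences under stress are thus not independent of the heat responses that chose the probes.

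HST was also lowest in stressed cytTC221 at its rising probe T04. T04 averaged -2.28 ± 0.21 in stressed cytTC221, -0.86 ± 0.09 in stressed cytTC248 and -0.77 ± 0.41 in stressed TC243 (SD, n = 4 each), a difference of -1.50 between cytTC221 and TC243 (limma, adjusted p = 1.5e-08). In SCL25A the falling probes T01 and T04 were 0.67 and 0.61 higher in stressed cytTC221 than in stressed TC243 (limma, adjusted p = 7.4e-08 and 2.2e-07), and the falling probe T04 of MPK4 was 0.68 higher (adjusted p = 9.0e-08 by limma). For mbd115 the falling probe T02 was lower instead, by -0.66 (limma, adjusted p = 1.4e-08), and for cys2 the rising probe T04 was 0.59 higher (limma, adjusted p = 4.5e-05). None of these probes was called different between control cytolines (limma F-test, lowest adjusted p = 0.0425, at cys2 T04). Their differences under stress are likewise not independent of the responses that chose them.

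Under stress, the leading probe was T04 of GRMZM2G038598, in a gene with 5 rising probes and 1 falling one, T06, whose deposited log2 responses were -1.24 in cytTC221, -1.20 in cytTC248 and -1.27 in TC243. On the percentile scale, T04 had 1.05, 1.09, 0.95 and 0.73 in stressed cytTC221, 2.45, 2.48, 2.57 and 2.33 in stressed cytTC248 and 3.14, 2.95, 3.03 and 3.27 in stressed TC243, with no overlap between the cytolines. Its controls had a mean of -2.47 ± 0.12 in cytTC221, -2.07 ± 0.10 in cytTC248 and -2.43 ± 0.07 in TC243 (SD, n = 4 each), and they differed too over the 3 cytolines (limma F-test, adjusted p = 0.00245), while control cytTC221 minus control TC243 was -0.04 (limma, adjusted p = 0.86). Stressed cytTC221 minus stressed TC243 was -2.14 ± 0.0886 (SE; limma, adjusted p = 4.0e-15), and -1.86 and -2.08 within the 2 slides that held both. With controls alike in both lines, this is nearly their difference in heat response, which the choice used.

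For GRMZM2G130678 the falling probe T01 had 1.24, 1.45, 1.44 and 1.37 in stressed cytTC221, 2.50, 2.54, 2.55 and 2.48 in stressed cytTC248 and 2.73, 2.50, 2.47 and 2.57 in stressed TC243. Its control means lay between 5.11 and 5.23 in the 3 cytolines, and stressed cytTC221 minus stressed TC243 was -1.19 ± 0.0782 (SE; limma, adjusted p = 1.2e-11). At GRMZM2G039996 T01, a rising probe, the same difference was -1.01 ± 0.071 (SE; limma, adjusted p = 3.8e-11), and at the falling probe GRMZM5G896082 T03 it was -1.23 ± 0.0924 (SE; limma, adjusted p = 1.2e-10). Within slides 3 and 6 these 3 differences between stressed arrays were between -0.79 and -1.16 and all negative. The slides hold arrays of the same fit, so this is no separate evidence. These differences under stress are also not independent of the heat responses that chose the probes.

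Among controls, the smallest adjusted p was at the falling probe T03 of GRMZM2G115828, which also differed under stress. On the percentile scale, the stressed arrays had -1.11, -1.11, -1.30 and -0.88 in cytTC221, -3.05, -3.56, -3.25 and -3.13 in cytTC248 and -3.09, -3.33, -3.48 and -3.12 in TC243. The controls had 1.30, 1.37, 1.34 and 0.98 in cytTC221, -1.59, -2.36, -2.08 and -2.21 in cytTC248 and -1.60, -1.76, -1.38 and -1.93 in TC243. In both conditions the cytTC221 arrays stood wholly above both other cytolines. The difference from TC243 was 2.16 ± 0.153 under stress (SE; limma, adjusted p = 4.3e-11) and 2.91 ± 0.153 in controls (SE; limma, adjusted p = 9.8e-13). Within the slides that held both lines it was 2.23 and 2.19 under stress, and 2.90 and 2.35 in controls.

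The next 4 genes in controls had smaller differences. GRMZM2G153725 T02 was 0.92 ± 0.101 higher in control cytTC221 than in control TC243, GRMZM2G068710 T07 was 0.68 ± 0.0877 higher, GRMZM2G063700 T03 was 0.41 ± 0.072 higher and GRMZM2G127729 T01 was 0.55 ± 0.0756 higher (SE; limma, adjusted p at most 0.000219). Within slides 1 and 4, which hold controls of all 3 cytolines, these differences were between 0.37 and 1.15 and all positive. The first 2 are falling probes and the last 2 rising ones.

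As a description of the responses that chose the probes, with no test, that of cytTC221 minus that of TC243 was -2.11 ± 0.125 at GRMZM2G038598 T04 and -1.06 ± 0.111 at GRMZM2G130678 T01 (SE). The falling probe GRMZM2G107469 T02 averaged -2.67 ± 0.17 in stressed cytTC221, against -0.52 ± 0.14 in control cytTC221, and -3.60 ± 0.05 in stressed TC243, against -0.21 ± 0.09 in control TC243 (SD, n = 4 each). The response of cytTC221 minus that of TC243 was 1.24 ± 0.127 (SE). GRMZM2G104013 T01, a rising probe, averaged 0.99 ± 0.14 in stressed cytTC221, 1.98 ± 0.13 in stressed cytTC248 and 2.06 ± 0.07 in stressed TC243, with control means between -0.73 and -0.64 (SD, n = 4 each).

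**Figure D5:**
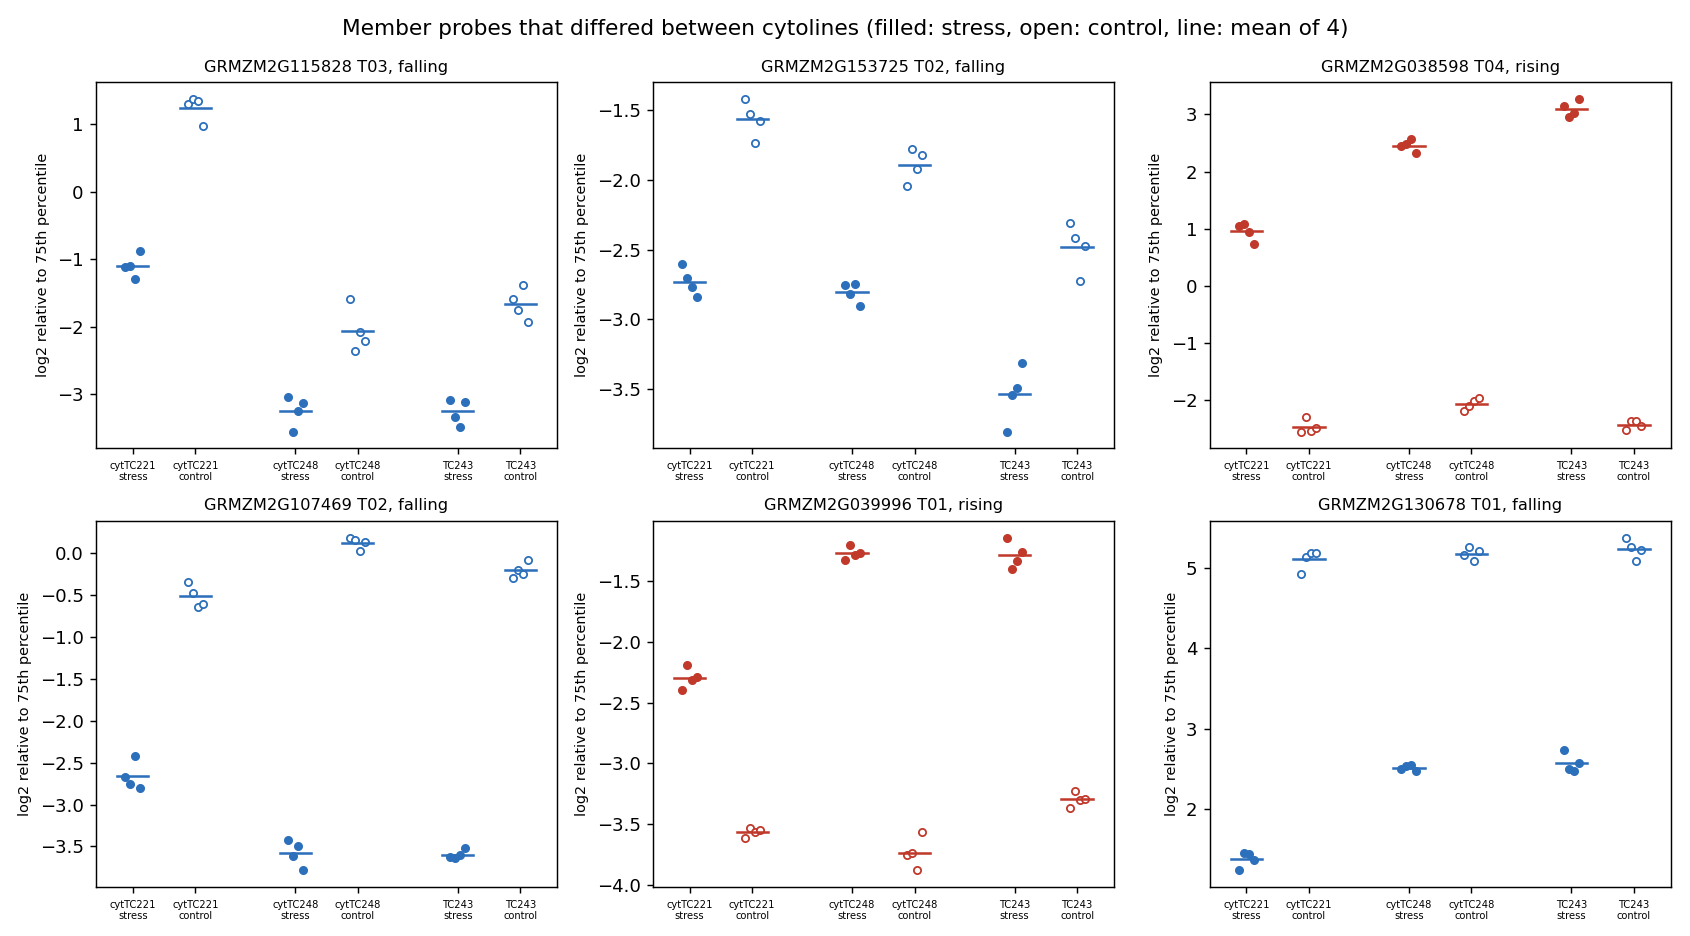
Log2 value relative to the array's 75th percentile (vertical axis) on every array, for 6 of the probes that differed between cytolines, 1 per panel, with stressed arrays (filled) left of control arrays (open) in each cytoline, red for rising and blue for falling probes, and lines at group means. At GRMZM2G115828 the cytTC221 arrays stand above the other cytolines in both conditions, and at GRMZM2G038598 they stand apart from the TC243 arrays under stress only.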

How the data were processed

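Total RNA of 24 samples (6 groups of 4) was labelled with Cy3 and hybridised to maize arrays of 176026 spots, which hold 133671 different probes, 42355 of them in duplicate. The authors scanned the arrays with Agilent Feature Extraction 11 (protocol GE1_1105_Oct12, version 11.5.1.1 per the file headers), and the deposited scanner files give the median spot intensity, its background and a detection call. The deposited value table gives log2 values with the scale and centring unstated. Set against the scanner files, it differed by at most 0.123 from quantile-normalized log2 median signals without background correction. The largest difference was the same on every array of a cytoline, 0.123 in cytTC221, 0.037 in cytTC248 and 0.057 in TC243. The deposited values may therefore not share 1 scale across cytolines, which was not tested. The table was used as deposited for the rule and the heat responses. Because the deposited table keeps the background, it understates the change of dim probes.

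For the tests, the median signal was corrected with normexp (offset 50), taken to log2 and set relative to each array's 75th percentile over 46955 spots well above background on all arrays. Spots of 1 probe were averaged. Probes well above background on every array of at least 1 group were fitted in 1 limma model of the 6 groups (lmFit and eBayes), with Benjamini-Hochberg adjustment over all 64523 and a threshold of 0.01, and F-tests over the cytolines. The median SD between replicates was 0.10 to 0.14. No spot was saturated, 261 were flagged as non-uniform, and 0 columns belonged to other series. Scripts were tested on simulated data.

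The genes and lists were chosen with earlier results of these data known. Named genes were the 15 named ones with the largest gap, the 3 without a name with the largest gap, and further named genes chosen by function. The others with a name were added after their values were seen. In each test the 5 genes with the smallest adjusted p were added. The lists were made by gene symbol from a RefSeq table of assembly Zm-B73-REFERENCE-NAM-5.0, used for names only, because it gives no descriptions. Lists of polyadenylation and RNA decay genes found no symbol. Sequences were not used here. Replicate numbers come from sample titles, since the source names of cytTC221 control replicates 3 and 4 both repeat number 2. Alternatives covered the background correction, normalization, filters, limits, slide and replicate blocks, and each array left out. R 4.3.3, limma 3.58.1, data.table (1.17.8), Python 3.11.15, pandas 2.3.3 and matplotlib 3.10.9 were used.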

Additional observations from a re-analysis of the deposited data

Results flagged for a closer look

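The values below stood apart from the other 3 arrays of their group by Dixon's ratio at its 95% critical value. Of 354 sets of 4 arrays examined, 27 had such a value, where chance gives about 1 in 20. On the deposited log2 scale, the largest departures were at HST T03, where stressed cytTC248 replicate 2 had 7.75 and the others 9.55 to 9.80, and at ERD3 T02, where control cytTC248 replicate 2 had 8.83 and the others 9.75 to 9.81. Without them the cytTC248 responses were 2.82 for HST T03 and -1.55 for ERD3 T02, against 2.34 and -1.31 with all arrays.

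Among stressed cytTC221 arrays, SC30 T02 had 11.61 and Actin-7 T15 had 11.66 in replicate 1, lpa3 T03 had 9.13 in replicate 2, and in replicate 4 cys2 T02 had 10.98, SCL25A T03 had 9.625 and frk2 T01 had 11.87. Among stressed cytTC248 arrays, sbp16 T01 had 8.07 in replicate 1, lpa3 T03 had 9.10 and GRMZM2G007477 T02 had 15.66 in replicate 3, GRMZM2G016232 T04 had 13.49 in replicate 2, and GRMZM2G104013 T01 had 1.78 on the percentile scale in replicate 2. Among stressed TC243 arrays, MPK4 T01 had 8.645 in replicate 2 and lpa3 T03 had 9.64 in replicate 1.

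In control cytTC221, cys2 T02 had 12.80 in replicate 1, sbp16 T01 had 7.43 in replicate 2, lpa3 T01 had 7.88 in replicate 3 and SC30 T02 had 9.23 in replicate 4. In control cytTC248, cys2 T02 had 12.98 in replicate 3 and cys2 T04 had 7.87 in replicate 4. In control TC243, replicate 1 had 13.88 at me2 T04, 10.845 at HST T01 and 8.58 at NAC120 T03, while replicate 4 had 7.36 at NAC120 T01, 16.08 at arf1 T03 and 16.42 at PIP2-1 T02. Apart from HST T03 and ERD3 T02, leaving out such an array moved a deposited response by at most 0.17.

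The heat response differed between cytolines at 135 of the 486 probes, with the smallest adjusted p of the limma F-test at GRMZM2G038598 T04 (3.02e-11), followed by GRMZM2G107469 T02 (2.11e-09), GRMZM2G039996 T01 (6.94e-09), GRMZM2G130678 T01 (2.30e-08) and GRMZM2G104013 T01 (4.58e-07). These probes were chosen by their heat response in each cytoline, and the test runs over all 3 cytolines, of which cytTC248 had the reverse array positions, so the values describe the choice and nothing is read from them. At these 5 probes all 4 stressed cytTC221 arrays lay outside the range of the stressed TC243 arrays.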

How the results depend on the processing

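The number of genes with opposite responses went with the limit, from 312 genes at 0.5 over 162 at 0.8 to 105 at 1 and 32 at 1.5. Chosen after seeing the data, probes with Sp in their name alone gave 11 genes and those with Xhy alone gave 76. Both settings leave out pairs that join the 2 tags. The strongest pair was Sp rising with Xhy falling in 65 genes and the reverse in 18. The part of the tag and of the number of probes in this drop was not tested. Other values gave 172 genes after quantile normalization of background-corrected signals, 162 of them shared, 237 with the scanner's processed signal (156 shared), 176 on the percentile over all spots (141 shared) and 181 on the scale of the tests (154 shared). Leaving out 1 array gave 159 to 166 genes, and leaving out 1 slide, also chosen after seeing the data, gave 158 to 165.

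The 63 of the 486 probes that differed in controls became 40 without a filter on dim probes, where more probes enter the adjustment, and ranged up to 89 on the deposited values. Over all probes tested, the counts in controls were 9865 of 64523, 7546 of 133671 without the filter and 12425 of 64523 on the deposited values. The unfiltered set also holds dim probes, whereas the 486 were well above background on all arrays. Nothing is therefore read from the relation of these shares. With 1 array left out, the counts among the 486 were 185 to 216 under stress, 46 to 67 in controls and 122 to 136 in the heat response. Over all 64523 probes they were 26266 to 31258, 8417 to 10361 and 21735 to 26305 in this order. Over the other alternatives the counts among the 486 were 170 to 256 under stress and 109 to 194 in the heat response. Both lowest counts came without the filter, where 29770 and 21984 of 133671 probes were called. The highest came on the deposited values under stress (31604 of 64523) and on the percentile over all spots in heat response (25955 of 64523). The replicate block gave 209 under stress, 57 in controls and 137 in the heat response, against 28769, 9255 and 23451 of all 64523 probes. Deviations of same-numbered arrays had a mean correlation of 0.007 (from -0.21 to 0.25), against -0.002 (from -0.22 to 0.27) for other numbers. Of the 24 arrays, 11 correlated best with an array of their own number and 9 with one of their own slide. Whether the numbers pair the samples was not tested. Of 4320 alternative responses of single probes 286 moved by more than the spread and 0 changed sign. All 510 alternative values of the 15 differences between cytolines kept their direction and call, with a highest adjusted p of 0.00022 (limma). These probes were picked for a heat response of at least 0.8 or for a small adjusted p. The kept signs and calls therefore follow largely from the choice and are no separate evidence. Deposited responses of probes close to background are understated, since the background was not subtracted.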

Other observations

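A single RefSeq gene (LOC100283671) held 2 of the 162 gene IDs, GRMZM2G004582 and GRMZM2G039359, each with 8 probes well above background on all arrays. The first had 2 rising and 4 falling probes and the second 2 rising and 1 falling. On the deposited log2 scale the strongest pair of GRMZM2G004582 had responses of 2.77 and -1.28 in cytTC221, 1.88 and -1.66 in cytTC248, and 2.02 and -1.97 in TC243. That of GRMZM2G039359 had 3.25 and -1.16, 2.77 and -1.77, and 2.92 and -1.60 in the same order.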
